A study of Mus musculus with 9 samples.

Results

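Keratins are the structural proteins of epithelial intermediate filaments, and their genes were followed here in a sort meant to hold pigment cells. The members were the genes whose symbol is Krt, a number and at most 1 lower-case letter. That rule took 54 of the 55359 genes of the deposited table, 28 of type I and 26 of type II. A further 58 genes with symbols starting Krtap, which encode keratin-associated proteins of the hair shaft, are not members. Krt85, a hair shaft keratin, was not analysed here.

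RNA was sequenced from melanocyte stem cells, which reside in hair follicles and renew the pigment cells of each hair. They were purified by flow sorting from the skin of mice that carry the knocked-in reporter Dct-H2B-GFP KI/+ in every group, so the sort relies on activity of the Dct gene. There were 3 libraries from animals given vehicle, 3 from animals given ionizing radiation (IR, 5 Gy) and 3 from animals given DMBA, a chemical carcinogen of the polycyclic hydrocarbon class that is applied in skin tumour models. The labels give no age, sex, strain, time after treatment, or route and dose of DMBA, and they do not say whether libraries came from separate animals. P-values therefore measure only the spread between these libraries, which may be technical.

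A keratin filament is built from pairs of a type I and a type II protein, so keratin genes tend to be used in matched pairs. Proliferating basal keratinocytes make KRT5 with KRT14, and cells that leave the basal layer switch to KRT1 with KRT10. KRT6 and KRT16 are induced by wounding and other stress, KRT8 and KRT18 belong to simple epithelia, and the remaining large families build the inner root sheath and the shaft of the hair. Pigment cells are not epithelial and use vimentin as their main intermediate filament protein, so keratin transcripts in a pigment cell sort serve as a measure of epithelial RNA in each library.

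The genes lie in 2 dense clusters. The deposited table places 27 members on chromosome 11 between 99123587 and 100160697, a span of 1037 kb, and 27 on chromosome 15 between 101245325 and 101940462, a span of 695 kb. All members on chromosome 11 are of type I, and those on chromosome 15 are of type II with the exception of 1 type I gene, Krt18. The table's genome build is not given in the sources used here, and its coordinates differ from those of the RefSeq windows below.

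The windows around the annotated transcript starts of 4 members are shown because the results turn on them. Krt10 was the most abundant suprabasal keratin and Krt5 a leading basal one, whereas the hair shaft gene Krt32 and the inner root sheath gene Krt71 had opposite patterns after IR. Each window is 300 bases long and read 5′ to 3′ on the minus strand in GRCm38.p6. They lie at chr11:99389315-99389614 for Krt10, chr15:101712856-101713155 for Krt5, chr11:100088220-100088519 for Krt32 and chr15:101743048-101743347 for Krt71. Sequences are from RefSeq, whose table matched 36 of the 54 members with 37 windows. Capitals mark matches, on either strand, to TATAAA (the core of a TATA box), TGANTCA (the AP-1 motif) or GCGTG (the core of the xenobiotic response element, read as CACGC on the other strand).
Krt10: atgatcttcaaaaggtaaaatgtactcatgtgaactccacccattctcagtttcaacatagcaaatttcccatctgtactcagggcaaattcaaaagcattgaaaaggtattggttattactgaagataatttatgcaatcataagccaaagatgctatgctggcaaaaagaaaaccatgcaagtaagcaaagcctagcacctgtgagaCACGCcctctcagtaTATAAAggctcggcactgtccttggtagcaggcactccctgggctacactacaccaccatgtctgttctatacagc
Krt5: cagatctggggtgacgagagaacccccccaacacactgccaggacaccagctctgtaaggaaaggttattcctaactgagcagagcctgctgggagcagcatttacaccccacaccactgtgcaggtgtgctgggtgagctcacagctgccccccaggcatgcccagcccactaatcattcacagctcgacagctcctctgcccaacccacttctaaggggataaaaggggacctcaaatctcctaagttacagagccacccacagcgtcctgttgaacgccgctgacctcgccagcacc
Krt32: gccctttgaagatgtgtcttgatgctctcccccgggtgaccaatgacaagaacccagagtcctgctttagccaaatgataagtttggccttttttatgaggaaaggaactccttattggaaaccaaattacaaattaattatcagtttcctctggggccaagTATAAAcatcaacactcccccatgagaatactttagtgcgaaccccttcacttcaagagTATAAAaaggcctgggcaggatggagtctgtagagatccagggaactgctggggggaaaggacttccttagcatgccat
Krt71: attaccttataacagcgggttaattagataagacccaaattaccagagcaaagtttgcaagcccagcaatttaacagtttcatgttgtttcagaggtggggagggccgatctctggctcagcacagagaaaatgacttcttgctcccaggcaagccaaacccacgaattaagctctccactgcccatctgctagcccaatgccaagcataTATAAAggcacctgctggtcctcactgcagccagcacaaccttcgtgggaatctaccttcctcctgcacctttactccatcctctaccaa

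These motifs were chosen after the data had been seen. TATAAA was present in 19 of the 37 keratin windows (51.4%) and in 13.6% of 32851 promoter windows of all genes. Its first base lay at -26 from the annotated start in Krt10, at -29 and -88 in Krt32 and at -40 in Krt71. GCGTG was present in 5 keratin windows (13.5%) and in 32.4% of all windows, and TGANTCA in 2 (5.41%) and in 7.81%. No matches overlapped in the 4 windows shown. The Krt5 window held none of the 3 motifs, which says only that these letters are not in this window.

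Libraries held between 6938406 and 8156905 gene counts. The pigment lineage was present throughout: 8 melanocyte genes summed to between 1510 and 2130 FPKM (counts scaled by exon length and library total), and Dct alone lay between 360.70 and 555.92 FPKM. Markers of fibroblasts and endothelium summed to at most 1.22 and 1.04 FPKM. Merkel cell markers, of interest because Merkel cells use KRT8, KRT18 and KRT20, summed to at most 0.57 FPKM, with Atoh1 and Isl1 at 0 counts. Sebocyte markers lay between 39.6 and 148 FPKM and leukocyte markers between 1.58 and 28.2 FPKM. IR 1 and IR 2 stood apart from each other in epithelial RNA, with keratin sums of 4489 and 753 FPKM, and results that rest on them are given below with and without each.

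Keratin RNA was present in each of the 9 libraries and was carried by a few genes of the epidermis. The keratin genes summed to 1845, 1551 and 2203 FPKM in the vehicle libraries, to 4489, 753 and 1686 FPKM after IR and to 3116, 4797 and 4183 FPKM in the DMBA libraries. The DMBA libraries did not overlap the vehicle libraries, whereas the IR libraries spanned nearly the whole range. In counts, keratins took between 0.17 and 1.12% of a library. The genes Krt5, Krt14, Krt15, Krt1, Krt10 and Krt77 together made between 90.6 and 95.4% of the keratin FPKM of each library, so the sum is in practice the sum of 6 genes of basal and suprabasal epidermis.

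Most of the family was silent or nearly so. No read was counted in any library for 13 members: Krt9, Krt19, Krt26, Krt31, Krt33b, Krt34, Krt40, Krt72, Krt73, Krt83, Krt86, Krt88 and Krt90. A count of 0 allows up to 3 counts in that library, and this floor covers counting error only. Another 15 members had counts in a single library, and 13 had a count in all 9. A library held at least 1 count for between 19 and 24 keratins. The count filter of the test kept 17 of the 54 members, and 1 of these, Krt71, passed only through the IR libraries and another, Krt32, only through the vehicle and DMBA libraries, so counts over the 17 are not counts over the family.

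The basal keratin genes Krt5, Krt14 and Krt15, on the minus strand of chromosomes 15, 11 and 11, were among the most abundant members. Krt5 encodes the type II keratin of the basal layer, and its level was 372.08, 315.25 and 478.71 FPKM in the vehicle libraries, 827.47, 134.09 and 259.95 FPKM in the IR libraries and 518.40, 797.82 and 819.22 FPKM in the DMBA libraries. Its partner Krt14 measured 345.89, 325.20 and 410.09 FPKM in vehicle, 799.02, 143.31 and 284.49 FPKM after IR and 561.35, 866.98 and 689.39 FPKM after DMBA. For both genes every DMBA library was above every vehicle library, and the IR libraries lay on both sides of the vehicle range. Krt15, which marks the follicle bulge where melanocyte stem cells reside as well as basal cells, measured 338.58, 223.90 and 414.36 FPKM in vehicle, 599.89, 168.43 and 193.99 FPKM after IR and 393.15, 608.71 and 756.60 FPKM after DMBA. Its DMBA and vehicle ranges overlapped through DMBA 1.

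The suprabasal genes Krt10, Krt1 and Krt77 were abundant too. Krt10, the type I keratin of differentiating epidermis, lies between 99276080 and 99280190 on chromosome 11 in the deposited table. Its level was 352.59, 290.06 and 383.71 FPKM in vehicle, 940.50, 145.26 and 446.19 FPKM after IR and 773.81, 1160.67 and 847.57 FPKM after DMBA. Krt1, its type II partner, between 101753861 and 101759229 on chromosome 15, measured 109.13, 73.75 and 81.71 FPKM in vehicle, 217.13, 38.18 and 126.16 FPKM after IR and 192.00, 333.74 and 250.68 FPKM after DMBA. Krt77, a further type II keratin, found in suprabasal epidermis in mice and in sweat ducts in human skin, measured 197.30, 211.11 and 246.60 FPKM in vehicle, 681.47, 80.27 and 298.52 FPKM after IR and 487.29, 786.64 and 532.20 FPKM after DMBA. In all 3 genes the lowest DMBA library exceeded the highest vehicle library. The remaining suprabasal genes of the list were near 0: Krt2 had 14 counts, all in IR 3, and Krt9, the keratin of sole skin, had none.

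**Figure D1:**
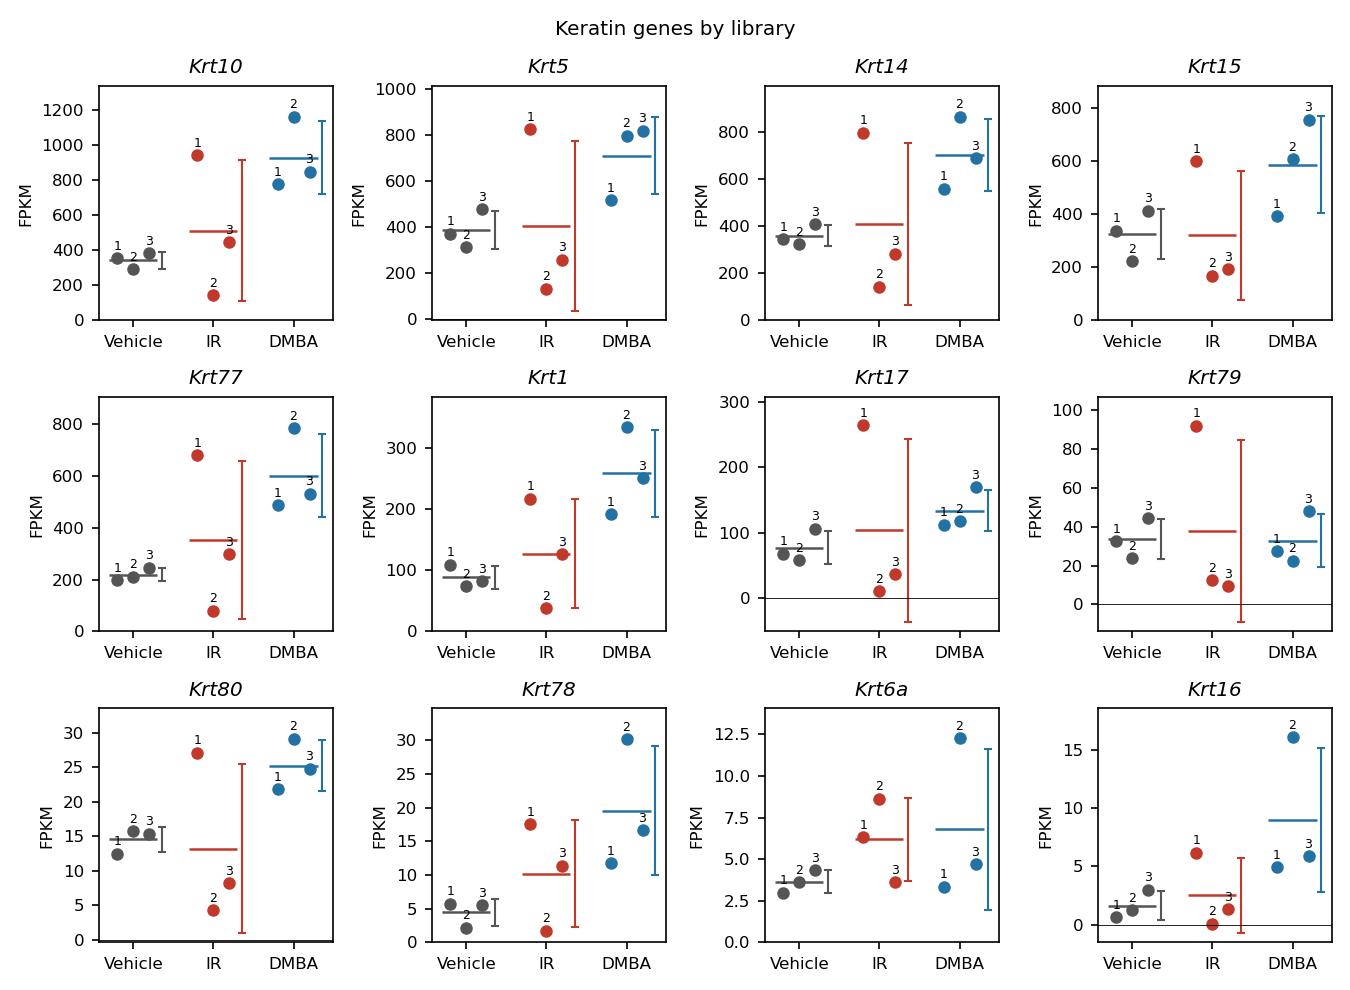
FPKM of the 12 keratin genes with a group mean of at least 5 FPKM in some group (vertical axes, one scale per gene), for the vehicle, IR and DMBA libraries; points are libraries with their replicate number, horizontal lines group means and vertical bars 1 SD on each side. IR 2 is the lowest library in 10 of the 12 genes and DMBA 2 the highest in 8, while Krt79 and Krt6a differ from that order.

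The order of levels per length was close within the leading genes. In vehicle the group means ran from Krt5 (389 ± 83.0 FPKM, SD, n = 3) through Krt14, Krt10, Krt15 and Krt77 to Krt1 (88.2 ± 18.6 FPKM) and Krt17, and neighbours in that order overlapped between libraries except at the step from Krt77 to Krt1. In DMBA libraries Krt10 led with 927 ± 205 FPKM, ahead of Krt5 with 712 ± 168 and Krt14 with 706 ± 153 FPKM, and these 3 ranges overlapped. In IR libraries every neighbouring pair among the 12 abundant keratins overlapped, with SDs as large as 402 FPKM around a Krt10 mean of 511 FPKM.

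The stress and outer root sheath keratins differed in level and in their order over the libraries. Krt17 reached levels near those of Krt1 in vehicle libraries, whereas Krt6a, Krt16, Krt6b and Krt75 were low. After DMBA, Krt17 averaged 134 FPKM and Krt1 259 FPKM, without overlap between libraries. Krt17, which marks the outer root sheath and is also induced by stress, measured 68.53, 58.13 and 106.63 FPKM in vehicle, 264.67, 11.09 and 36.85 FPKM after IR and 112.87, 118.43 and 170.05 FPKM after DMBA. Its IR 1 value was 23.9 times its IR 2 value, a wider split than that of Krt14, at 5.58 times. Krt16, a type I keratin of wounded epidermis, measured 0.63, 1.27 and 3.00 FPKM in vehicle, 6.18, 0.08 and 1.35 FPKM after IR and 4.95, 16.07 and 5.89 FPKM after DMBA. Krt6a, the type II gene whose product pairs with KRT16, measured 2.99, 3.62 and 4.35 FPKM in vehicle, 6.34, 8.63 and 3.62 FPKM after IR and 3.36, 12.29 and 4.71 FPKM after DMBA. Krt6a was the exception to the order of the libraries: IR 2, the lowest library for 10 of the 12 abundant keratins, was its second highest. The ratio of Krt6a to Krt16 was accordingly 108 in IR 2, where Krt16 had 1 count, and between 0.679 and 4.75 in the other 8 libraries.

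Sequence sharing limits the values of this group. In GENCODE vM21 transcripts, 45.5% of the 50-base stretches of Krt6a occur in another gene, mostly in Krt6b, as do 37.6% of those of Krt16 and 14.4% of those of Krt14. The authors' counting could therefore split or drop their reads. Krt6b, the near copy of Krt6a, had 4 counts in IR 1, 4 in DMBA 1, 17 in DMBA 2 and none in the other libraries. No 50-base stretch of Krt1, Krt10, Krt77, Krt78, Krt79, Krt80 or Krt32 was shared. Krt75, the companion layer keratin of this list, had at most 33 counts in a library.

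Krt79, Krt80 and Krt78 completed the abundant set. Krt79 marks the infundibulum, the upper follicle, and the sebaceous gland duct. It measured 32.55, 23.85 and 44.21 FPKM in vehicle, 91.84, 12.32 and 9.56 FPKM after IR and 27.49, 22.53 and 48.03 FPKM after DMBA, so its DMBA and vehicle ranges overlapped throughout. Krt80, a type II keratin of differentiating epithelia, measured 12.52, 15.78 and 15.40 FPKM in vehicle, 27.14, 4.33 and 8.28 FPKM after IR and 21.83, 29.13 and 24.82 FPKM after DMBA. Krt78, a type II keratin of stratified epithelia, measured 5.74, 2.20 and 5.50 FPKM in vehicle, 17.51, 1.72 and 11.37 FPKM after IR and 11.76, 30.20 and 16.69 FPKM after DMBA. Krt80 and Krt78 were higher in every DMBA library than in any vehicle library. Krt23 and Krt24, type I genes of the further keratins, reached at most 9.30 and 3.72 FPKM.

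Simple epithelial keratins were close to absent. Krt8 had 4, 1 and 4 counts in IR 1, IR 2 and IR 3 and none elsewhere, and its partner Krt18 had 1 count, in vehicle 2. Krt19, a follicle stem cell marker, had no count. Krt20, expressed by Merkel cells, had 8 counts in DMBA 2, and Krt7 had 34 in DMBA 3, 9 in IR 1, 2 in DMBA 1 and 1 in IR 3. None of the 5 genes passed the count filter.

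Hair keratins were as sparse. Of 15 hair shaft genes, 6 had no count in any library and 1 (Krt32) passed the filter. Of 8 inner root sheath genes, 3 had no count and 1 (Krt71) passed. Among the rest, Krt84 had 48 counts in IR 2 and 11 in DMBA 2, and Krt82 had 18 counts in IR 3, each with 0 in the remaining libraries. Of the 58 Krtap genes, 51 had no count in any library, and the 47 counts of the others summed to at most 2.74 FPKM in a library.

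DMBA libraries held more keratin RNA than vehicle libraries, but no single keratin gene passed the test over all genes. The sums averaged 4032 ± 851 FPKM in DMBA and 1866 ± 327 FPKM in vehicle libraries (mean ± SD, n = 3). Krt1 was 2.87-fold and Krt10 2.65-fold higher, Krt77 2.70-fold, Krt14 1.91-fold and Krt5 1.79-fold. Of the 17 keratins tested, 13 had a positive log2 fold change, and 9 (Krt1, Krt5, Krt10, Krt14, Krt16, Krt17, Krt77, Krt78 and Krt80) had DMBA libraries that all lay above the vehicle libraries, where 7.51% of all genes tested had that pattern upwards.

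With edgeR (quasi-likelihood test, p adjusted by Benjamini-Hochberg over 16051 genes), 0 of the 17 keratins were called at an adjusted p under 0.05, and 0.0374% of all genes (6 genes) were. DESeq2 and limma on log2(FPKM + 1) also called 0 keratins. At an unadjusted p under 0.05, edgeR had 8 keratins higher and 0 lower, where 3.85% of all genes were higher. Krt1 had the smallest p, at 1.52 ± 0.37 (log2 fold change ± SE; edgeR adjusted p = 0.423). Krt78 had the largest change among the abundant keratins after Krt16, at 2.10 ± 0.56 (edgeR adjusted p = 0.518), and Krt16 had 2.43 ± 0.97 (edgeR adjusted p = 0.673). The median over the 17 keratins was 0.87 on the log2 scale and that over all genes tested 0.01. Krt79 stood aside from the other abundant keratins, at -0.08 ± 0.55.

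The fitted changes of the suprabasal genes were larger than those of the basal ones in this comparison. Log2 fold changes lay between 1.41 and 1.52 for the suprabasal Krt1, Krt10 and Krt77 and between 0.81 and 0.94 for the basal Krt5, Krt14 and Krt15. The ratio of Krt10 to Krt14 was 1.02, 0.892 and 0.936 for vehicle, 1.18, 1.01 and 1.57 after IR and 1.38, 1.34 and 1.23 after DMBA. Every DMBA library thus had more Krt10 per Krt14 than any vehicle library, and IR 1 and IR 3 did too. The ratio of Krt1 to Krt5 was 0.293, 0.234 and 0.171 for vehicle, 0.262, 0.285 and 0.485 after IR and 0.37, 0.418 and 0.306 after DMBA, again with DMBA above vehicle without overlap. The ratio of Krt77 to Krt5, chosen after the values were seen, did overlap. It was 0.53, 0.67 and 0.515 for vehicle and 0.94, 0.986 and 0.65 after DMBA. No test was run on these ratios or between the suprabasal and basal changes.

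The partners of the basal and of the suprabasal layer, by contrast, kept narrow proportions while their levels ranged more than 5-fold between libraries. The stress pair Krt6a and Krt16 did not, with the ratios given above. The ratio of Krt5 to Krt14 lay between 0.914 and 1.19 in the 9 libraries. The ratio of Krt1 to Krt10 lay between 0.213 and 0.31, and that of Krt77 to Krt10, chosen after the values were seen, between 0.553 and 0.728. Other ratios spread further, within a layer as well as between layers. That of Krt15 to Krt14, both basal, lay between 0.682 and 1.18, and that of Krt10 to Krt14 between 0.892 and 1.57. The ratio of Krt17 to Krt14 lay between 0.0774 and 0.331 and that of Krt79 to Krt14 between 0.026 and 0.115. Except for Krt10 to Krt14, these ratios were also chosen after the values were seen.

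**Figure D2:**
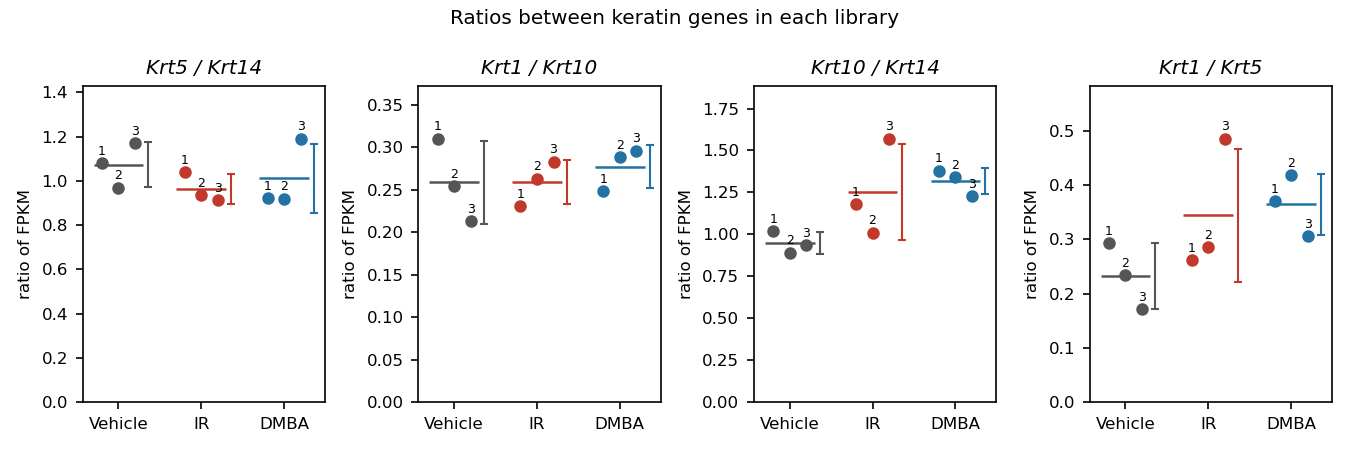
Ratios of FPKM between keratin genes (vertical axes, from 0) in each vehicle, IR and DMBA library; points are libraries with replicate numbers, horizontal lines group means and vertical bars 1 SD on each side. The partner ratios Krt5 to Krt14 and Krt1 to Krt10 overlap between all groups, whereas Krt10 to Krt14 and Krt1 to Krt5 are higher in every DMBA library than in any vehicle library.

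Other epithelial genes followed the keratins from library to library. A list of 21 adhesion genes of epithelia, which holds no keratin, summed to 930, 843 and 1115 FPKM for vehicle, 1831, 501 and 825 FPKM after IR and 1372, 1964 and 1661 FPKM after DMBA. A list of 16 genes of differentiated epidermis summed to 461, 454 and 527 FPKM, to 1219, 208 and 397 FPKM and to 855, 1317 and 990 FPKM in the same order. Both lists had their lowest sum in IR 2 and their highest in DMBA 2, as the keratins did, while the melanocyte sum was 1525 FPKM in IR 1, 1628 FPKM in IR 2 and 1510 FPKM in DMBA 2. The keratin sum divided by the adhesion sum was 1.93 ± 0.0808 in vehicle and 2.41 ± 0.128 in DMBA libraries, without overlap, and ranged from 1.5 to 2.45 in IR libraries. The adhesion genes did not all vary alike: in IR 1 and IR 2, Dsp measured 366.46 and 63.19 FPKM, Plec 126.66 and 103.79 FPKM and Dst 64.24 and 54.15 FPKM. This ratio therefore does not show how far keratins differed beyond epithelial content. Divided by the differentiated epidermis sum it was 3.86 ± 0.403 for vehicle, 3.85 ± 0.342 after IR and 3.84 ± 0.338 after DMBA.

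For DMBA against vehicle, 20 of the 21 adhesion genes had a positive log2 fold change, with a median of 0.86, and edgeR called 0. By edgeR's unadjusted p under 0.05, 11 were higher and 0 lower, where 3.85% of all genes tested were higher. Desmoplakin (Dsp), which anchors keratin filaments to desmosomes, averaged 297 ± 56.2 FPKM after DMBA and 149 ± 33.8 FPKM in vehicle. Of the differentiated epidermis genes, 15 of 16 were positive, with a median of 1.13, edgeR called 0 and 9 were higher by the same unadjusted p. Krtdap, the keratinocyte differentiation-associated protein gene, averaged 139 ± 11.9 and 55.6 ± 7.18 FPKM. Of 13 keratinocyte transcription factors tested, 11 were positive, with a median of 0.73, edgeR called 0 and 5 were higher by the unadjusted p. The 8 melanocyte genes had a median of -0.12, with 2 positive and 0 called. By the unadjusted p, 0 were higher and 1 was lower, Kit, at 145 ± 4.81 FPKM after DMBA and 174 ± 4.56 FPKM in vehicle. The share of all genes lower by that p was not counted. Vim averaged 457 ± 91.3 FPKM after DMBA and 478 ± 147 FPKM in vehicle. In these sorted bulk samples, more cells of an epithelial type and more keratin RNA per cell cannot be told apart, and the part of either in the keratin difference was not tested. With the adhesion level as a covariate, the median keratin log2 fold change between DMBA and vehicle was 0.37. That level includes genes such as Plec and Dst that varied little, so the value is not a keratin difference at equal epithelial content.

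**Figure D3:**
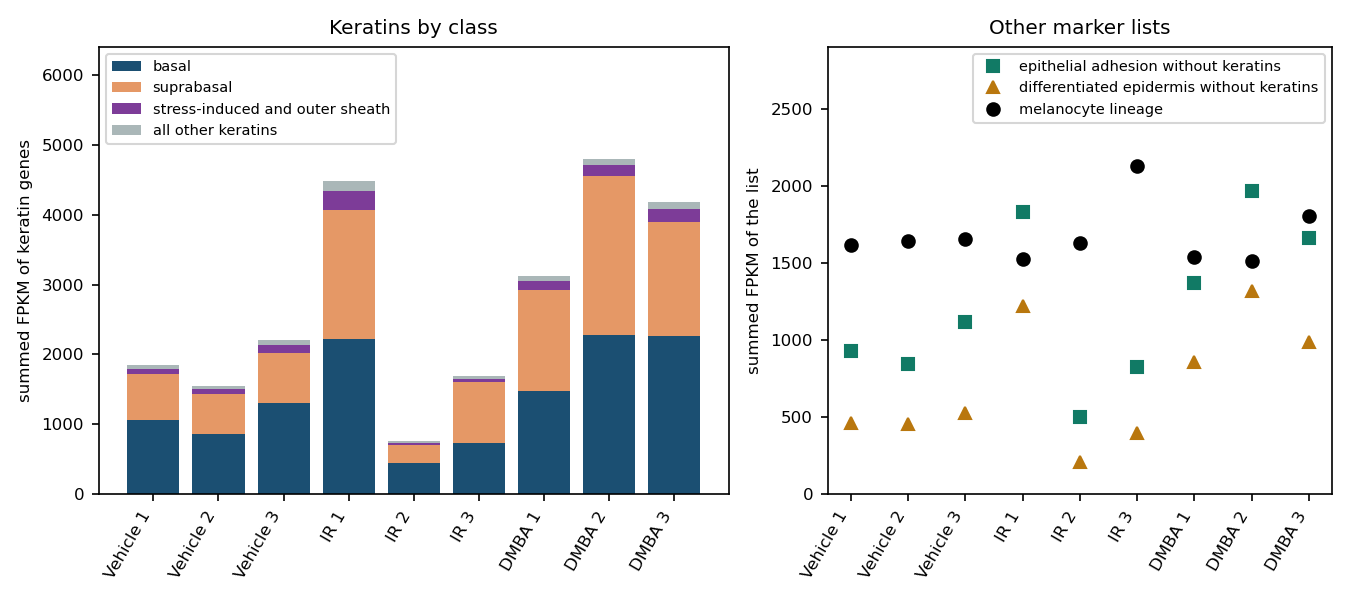
Left, summed FPKM of the keratin genes in each of the 9 libraries, stacked by class with an axis from 0; right, summed FPKM of the adhesion, differentiated epidermis and melanocyte lists in the same libraries. The keratin, adhesion and differentiated epidermis sums are lowest in IR 2 and highest in DMBA 2, while the melanocyte sum lies between 1510 and 2130 FPKM.

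The number of keratins called in this comparison depended on the libraries in the fit. Without the IR libraries, which share the estimate of spread, edgeR called 6 of 16 keratins higher in DMBA (Krt1, Krt5, Krt10, Krt14, Krt77 and Krt78), where 0.294% of all genes were called. Without IR 1 it called 4 of 18 (Krt1, Krt10, Krt14 and Krt77; background 0.146%), and without IR 2 also 4, of 17 (Krt1, Krt10, Krt77 and Krt78; background 0.0936%).

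The 3 irradiated libraries disagreed with each other about the abundant keratins. The keratin sum averaged 2309 ± 1944 FPKM after IR, and the ratio of IR 1 to IR 2 was between 3.56 (Krt15) and 77.2 (Krt16) for 11 of the 12 abundant keratins and 0.735 for Krt6a. Against vehicle, log2 fold changes were 0.06 for Krt5, 0.18 for Krt14, -0.02 for Krt15, 0.57 for Krt10, 0.53 for Krt1 and 0.69 for Krt77, with SEs between 0.35 and 0.42. EdgeR's quasi-likelihood test called 0 of the 17 keratins, where 0.735% of all genes were called, and limma on log2(FPKM + 1) called 0. DESeq2 called 1, Krt32, where it called 1.56% of all genes. At an unadjusted p under 0.05, edgeR had 2 keratins higher (Krt71 and Krt78; 4.93% of all genes) and 1 lower (Krt32). The median over the 17 keratins was 0.41 and over all genes 0.

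Which of the IR libraries is kept sets the direction. Without IR 1, edgeR called Krt5, Krt17, Krt79 and Krt80 lower after IR than in vehicle, 4 of 18 keratins tested, with a background of 0.765%. Without IR 2 it called Krt10 and Krt77 higher, 2 of 17, with a background of 0.556%. Without IR 1 the log2 fold change of Krt17 was -1.68 and that of Krt79 -1.59, where all 9 libraries gave 0.41 and 0.17. IR 1 also had the highest leukocyte sum, 28.2 FPKM, of which Cd74 alone made 27.24 FPKM. Its sebocyte sum was 146 FPKM, which DMBA 2 matched with 148 FPKM. Scd1 alone made 110.17 and 107.27 FPKM of these, so each sum was mostly 1 gene and does not count cells. The part of leukocytes or sebocytes in the keratin values was not tested.

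**Figure D4:**
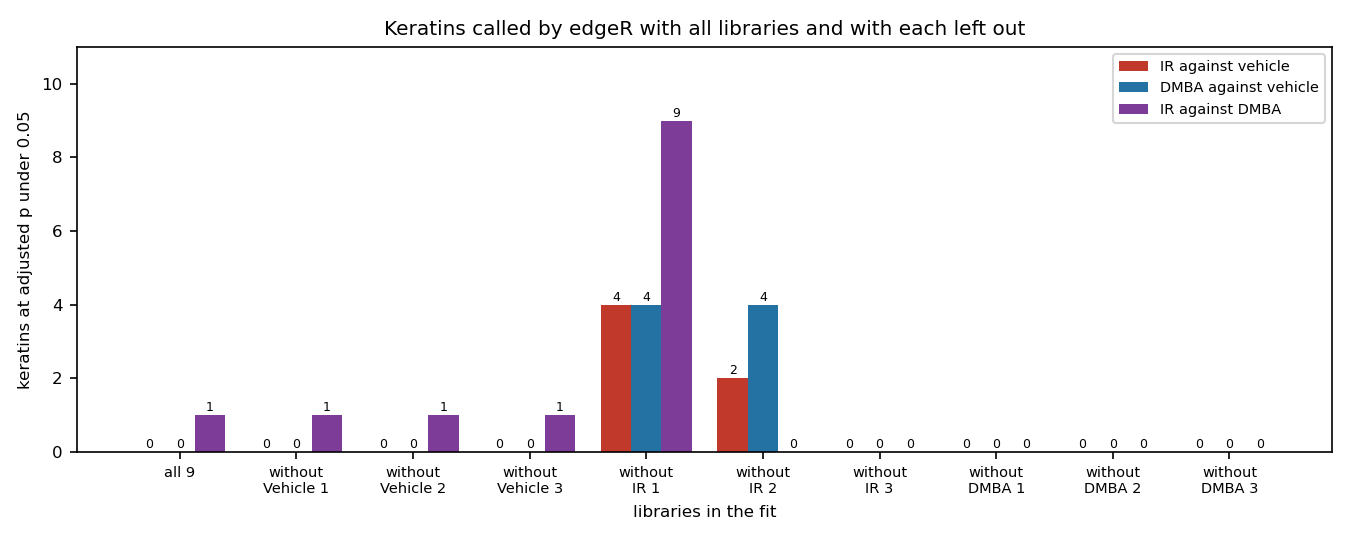
Number of keratin genes at an edgeR adjusted p under 0.05 (vertical axis) with all 9 libraries and with each library left out in turn (horizontal axis), for the 3 comparisons. Leaving out IR 1 gives 4, 4 and 9 keratins for IR against vehicle, DMBA against vehicle and IR against DMBA, leaving out IR 2 gives 2, 4 and 0, and every other fit gives 0 or 1.

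Krt32 and Krt71, both genes of the hair follicle with few counts, separated the IR libraries from the rest. Each passed the count filter only through the groups where it was high. Neither this separation nor the test values below are therefore independent support for a difference. Krt32, which encodes a type I keratin of the hair shaft cuticle, lies between 99971674 and 99979052 on chromosome 11 in the deposited table. It had 20, 5 and 34 counts in vehicle, 0, 1 and 0 counts after IR and 29, 42 and 57 counts after DMBA. All IR libraries were thus below all others. Krt71, which encodes a type II keratin of the inner root sheath, lies between 101642384 and 101651544 on chromosome 15. It had 18, 18 and 10 counts after IR and 0 in each vehicle and DMBA library. The keratin sums of IR 1 and IR 2 differed 5.96-fold. In these libraries Krt32 had 0 and 1 counts and Krt71 had 18 and 18. The part of epithelial content in these counts was not tested.

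The fall of Krt32 after IR relative to DMBA was the only keratin call of the edgeR fit to all 9 libraries after the filter on low counts. The summed counts were 1 in IR and 128 in DMBA libraries, a DMBA to IR ratio of 129 (95% counting interval 22.7 to 5119), and the fitted log2 fold change was -6.52 ± 1.47 (SE; edgeR adjusted p = 0.0355). Against vehicle, with 59 counts, the ratio was 58.8 (95% counting interval 10.2 to 2361) and the gene did not pass with edgeR (log2 fold change -5.45 ± 1.44, edgeR adjusted p = 0.118). The call against DMBA held in 10 of 22 alternatives, with adjusted p between 0.000882 and 0.279, and was lost when any 1 of the IR or DMBA libraries was left out. Krt71 was at least 15.4-fold higher after IR than in vehicle and at least 15.3-fold higher than after DMBA, taking 3 counts over the group as the floor, and did not pass (edgeR adjusted p = 0.35 and 0.313). Other genes of the same layers give no matching values: Krt25, the type I inner root sheath gene whose product pairs with KRT71, had 1 count in all, and Krt35 of the hair shaft had 2. Krt84 and Krt82, also of the hair shaft, had 48 counts in IR 2 and 18 in IR 3. The 15 hair shaft genes together had 31, 20 and 42 counts in vehicle, 0, 52 and 23 after IR and 37, 59 and 57 after DMBA. The hair shaft genes as a class thus did not follow Krt32.

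Krt24, a type I keratin gene of differentiating keratinocytes, shared the direction of Krt32. Its summed counts were 110 in vehicle, 31 after IR and 107 after DMBA, where Krt32 had 59, 1 and 128. Krt24 measured 3.72, 2.44 and 1.54 FPKM in vehicle, 0.61, 1.49 and 0.08 FPKM after IR and 2.31, 3.37 and 1.95 FPKM after DMBA. The IR libraries lay below the others, with 1 of them close to the lowest vehicle library, and the log2 fold change against vehicle was -1.79 ± 0.98 (edgeR adjusted p = 0.697). Krt24 and Krt32 were the 2 of 17 keratins (11.8%) whose IR libraries were all below vehicle, a pattern of 6.16% of all genes, and all below DMBA, a pattern of 6.98%. Krt71 was the 1 keratin of 17 (5.88%) with all IR libraries above vehicle, a pattern of 7.67% of all genes.

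Between IR and DMBA libraries none of the 12 abundant keratins passed the test, and their fitted values ranged from -1.80 for Krt16 through -0.10 ± 0.50 for Krt6a to 0.25 ± 0.54 for Krt79. Of the 17 keratins, 15 had a negative log2 fold change, and the median was -0.78, against -0.02 over all genes. Krt1 was 1.99-fold lower (edgeR adjusted p = 0.376), and the log2 fold change was -0.83 ± 0.35 for Krt15 (edgeR adjusted p = 0.489) and -0.83 ± 0.38 for Krt10 (edgeR adjusted p = 0.564). EdgeR called 1 keratin of 17 (Krt32), where 0.978% of all genes were called in either direction and 0.0997% lower in IR. At an unadjusted p under 0.05, 5 keratins were lower (3.53% of all genes) and 1 higher. This comparison and that of DMBA with vehicle share the DMBA libraries, and that of IR with vehicle shares the IR libraries, so their values are not independent. None of the 21 adhesion genes had a positive log2 fold change, their median was -0.61, 3 were lower at an unadjusted p under 0.05, and edgeR called 0.

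Without IR 1 the same comparison called 9 of 18 keratins lower in IR: Krt1, Krt5, Krt10, Krt14, Krt15, Krt17, Krt77, Krt79 and Krt80, with a background of 2.46%. Without IR 2 no keratin passed, Krt32 included. Across all 3 groups, edgeR's test for any difference called 0 of 17 keratins, where 1.07% of all genes were called. The smallest adjusted p values were 0.0908 for Krt32 and 0.113 for Krt1, and DESeq2 called 1, Krt32, among 341 of 16051 genes.

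**Figure D5:**
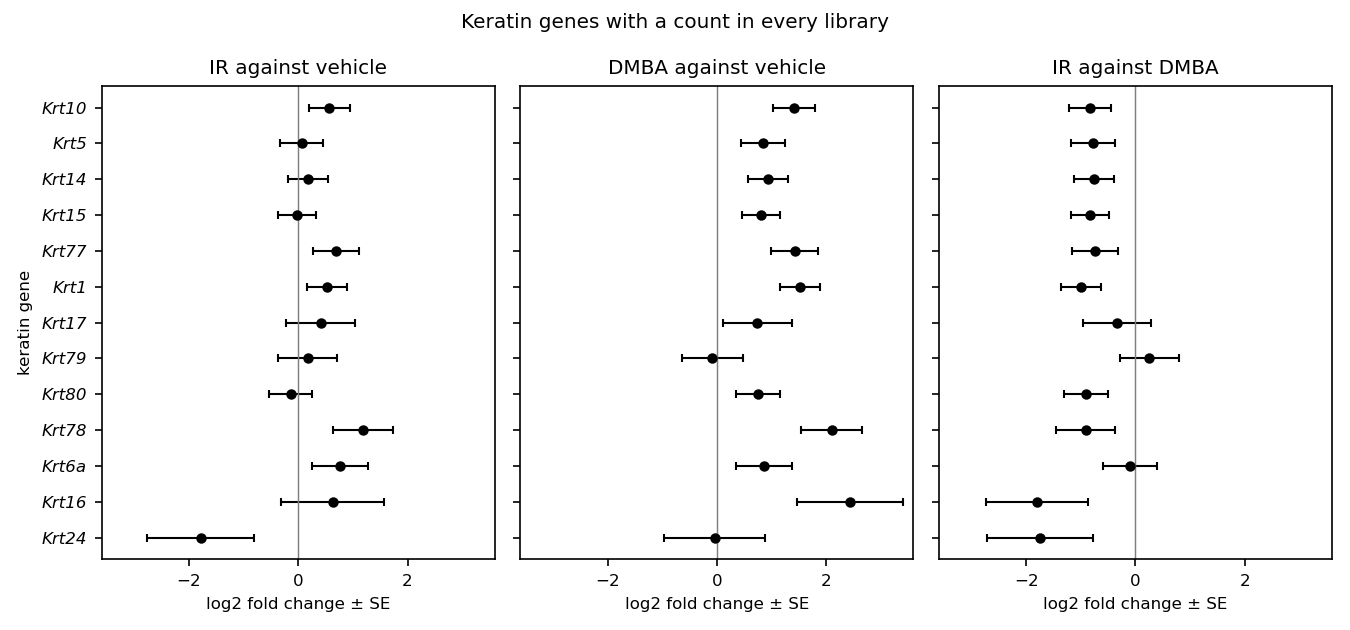
Log2 fold changes with 1 SE on each side (horizontal axes) of the 13 keratin genes with a count in every library, from the edgeR fit of all 9 libraries, for IR against vehicle, DMBA against vehicle and IR against DMBA. Krt1, Krt10 and Krt77 lie between 1.41 and 1.52 in the middle panel and Krt5, Krt14 and Krt15 between 0.81 and 0.94, while Krt79 lies near 0 in all panels and none of the 13 genes passed the adjusted test.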

How the data were processed

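The deposited table gives, per gene and library, raw read counts and FPKM that the authors derived from them by exonic length and library total; recomputing gave each FPKM within 0.0050. The submitters' processing notes name HISAT2 2.0.1, HTSeq 0.6.1, cutadapt 1.9.1 and bcl2fastq 2.17.1.14. The build, and whether counting used the strand, is not given in the sources used here. Of the tested keratins, 6 overlap another gene, on the opposite strand, whose counts are at most 5.32% of the keratin's. Rows without a symbol (0.121 to 0.175% of counts) carry gene identifiers and were kept. The main test was edgeR 4.0.16 under R 4.3.3 (filterByExpr, TMM, 1 mean per group over 9 libraries, two-sided quasi-likelihood test, Benjamini-Hochberg over 16051 genes). No 2 libraries of the same group were duplicates (chi-square per degree of freedom at least 14.9). On simulated counts the test recovered 31.3 to 35.8% of 2-fold, 68.7 to 74.6% of 4-fold and 84.8 to 86.4% of 8-fold changes. A keratin that was not called may therefore still differ by 2-fold. Alternatives were DESeq2 1.42.0, limma 3.58.1, other filters and scaling, a replicate block, an adhesion covariate, subsets and each library left out. Named keratins averaged at least 5 FPKM in some group, were called, had 1 of the 5 smallest p-values of a comparison, or were among 11 fixed genes; others, such as Krt7, Krt84 and Krt82, were named after their values were seen. Members, lists and tests were chosen with earlier results of these data known.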

Additional observations from a re-analysis of the deposited data

How the results depend on the processing

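The counts of called keratins moved with the fit. With no filter on low counts, edgeR tested 41 keratins among 31041 genes. It called 3 keratins (236 genes in all) for IR against vehicle, 9 (159 genes) for DMBA against vehicle, 8 (371 genes) for IR against DMBA and 10 (485 genes) for any difference. DESeq2 called 1 (251 genes in all) for IR against vehicle and 1 (341 genes) for any difference. Limma with no filter called 1, Krt71, for IR against vehicle (49 genes), any difference (56 genes) and IR against DMBA (58 genes). The fit of only the vehicle and DMBA libraries called 6 (44 genes) for DMBA against vehicle. For IR against DMBA, limma with its filter called 0 at pseudocounts of 1, 0.1 and 5, and the fits with the replicate block and with the adhesion covariate called 0. The 7 libraries without vehicle 2 and IR 2 gave 1 (111 genes) for any difference. Leaving out each library in turn gave 0 to 4 (76 to 131 genes) for IR against vehicle and 0 to 4 (2 to 25 genes) for DMBA against vehicle. It gave 0 to 9 (96 to 421 genes) for IR against DMBA and 0 to 10 (129 to 388 genes) for any difference. In 4 cases a log2 fold change turned into a call of the opposite sign without IR 1: over the libraries left out, IR against vehicle ran from -0.96 to 0.47 for Krt5, from -1.68 to 0.94 for Krt17 and from -1.59 to 0.62 for Krt79, and IR against DMBA from -1.50 to 0.71 for Krt79. The causes were not tested. Of 979 alternatives for single keratins, 916 changed no test result, 47 made a new call and 12 lost one. The median over the keratins, in fits with a filter, ran from 0.37 to 1.13 for DMBA against vehicle, from -0.77 to 0.64 for IR against vehicle and from -1.61 to -0.10 for IR against DMBA. The log2 fold change of Krt1 for DMBA against vehicle ran from 0.77 to 1.70 and was called in 4 of 22 alternatives.

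Replicate numbers recur across groups, but same-numbered libraries did not deviate together: correlations of their deviations from the group means lay between -0.087 and 0.042, so the numbers are not read as a pairing. With the replicate number as a block, 0 keratins were called for IR against DMBA, where Krt32 had been called, and no keratin was called in the other comparisons.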

Other observations

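Intermediate filament genes outside the keratin family did not follow the keratins. A list of 13 such genes, led by Vim, summed to between 582 and 606 FPKM in the IR libraries, between 365 and 663 FPKM in the vehicle libraries and between 405 and 579 FPKM in the DMBA libraries. IR 1 and IR 2, whose keratin sums differed 5.96-fold, had sums of 606 and 603 FPKM on this list. Vim alone made 577.96 and 558.49 FPKM of these, so the sums are mostly 1 gene. Of the 7 genes tested, 6 had a positive log2 fold change for IR against vehicle, with a median of 0.45, and 0 for DMBA against vehicle, with a median of -0.29. For IR against DMBA 6 were positive, with a median of 1.0. EdgeR called 0 in each comparison. At an unadjusted p under 0.05, 1 was higher for IR against vehicle, where 4.93% of all genes were higher. For DMBA against vehicle 0 were so in either direction. For IR against DMBA 2 were higher and 0 lower, and the share of all genes higher was not counted there. Vim, which encodes vimentin, measured 635.52, 453.49 and 344.06 FPKM in vehicle, 577.96, 558.49 and 545.03 FPKM after IR and 560.91, 420.31 and 389.83 FPKM after DMBA, and the 3 groups overlapped.

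Foxn1, the transcription factor gene that drives keratinocyte and hair shaft differentiation, measured 0.11, 0 and 0.13 FPKM in vehicle, 0.98, 0 and 0.88 FPKM after IR and 1.61, 1.94 and 1.93 FPKM after DMBA. Every DMBA library was above all others, and the gene did not pass (edgeR adjusted p = 0.572 against vehicle). Trp63, which encodes the p63 regulator of basal epithelium, measured between 11.89 and 18.22 FPKM in vehicle and between 16.62 and 29.22 FPKM after DMBA, and these ranges overlapped.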
